A study of Citrullus lanatus with 6 samples.

Results

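The genes described here are the 27 ethylene-responsive transcription factor (ERF) genes of watermelon leaves under salt, out of 23568 genes in the deposited expression table. A gene was taken as a member when the annotation in the study's own list of genes raised by salt called it an ethylene-responsive or ethylene responsive transcription factor. Only the identifier and the description were taken from that list. The list was at hand in shortened form and held genes with higher expression in salt, so the salt against control values of these same libraries chose the members. For this reason their differences between salt and control are given as a description, and no p-value is given or read for a single member. ERF genes that did not change, that fell, or that stood in the rest of the list are not part of the account. All 27 were found in the expression table and all 27 passed the filter on low values (a mean over all 6 libraries no lower than 0.5 FPKM), some of them only through their salt values.

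Leaves of Citrullus lanatus cv. Crimson Sweet were collected from seedlings 6 weeks old that had stood in water with 300 mM NaCl, or in deionized water alone, for 7 h. The control group and the salt group have 3 libraries each, all of 1 cultivar at 1 time and 1 dose. The labels speak of leaf samples from independent plants, without saying that each library is 1 plant. One label field calls the treated libraries drought-stressed, whereas the protocol field and the series title name salt, and they are called salt libraries here. In a whole leaf, fewer cells of a type and less RNA per cell cannot be told apart.

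FPKM is the number of sequenced fragments scaled to the length of the gene and to the total fragments of the library, so that levels of different genes can be set side by side per unit of length. The libraries held 18838185 to 21258223 fragments. Of the 32 photosynthesis genes used as leaf markers, 31 were above 0 in all libraries. Their summed FPKM ranged from 12731 to 20491 in the control group and from 734 to 4728 in the salt group. The lowest sum was in salt replicate 2. These genes come from a list that the study gives for photosynthesis genes lowered by salt in these libraries. Their lower sums in salt restate that choice, and nothing is read from them. Differences are on the log2(FPKM + 0.5) scale, which understates those of weakly expressed genes. The median difference of the 16638 genes tested was -0.57, which moved to -0.05 after scaling each library by its median ratio to a common reference, and all differences below are to be read against this shift.

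ERF proteins bind short GC-rich elements in promoters through a conserved DNA-binding domain, the AP2/ERF domain, and act as activators or repressors. In Arabidopsis, ethylene is made from 1-aminocyclopropane-1-carboxylate (ACC), is perceived by receptors of the ETR family that keep the kinase CTR1 active in the absence of the hormone, and leads to accumulation of the transcription factor EIN3, which the F-box proteins EBF1 and EBF2 otherwise direct to degradation. EIN3 activates ERF genes, which in turn act on defence and stress genes. ERF genes are also known to respond to salt, drought and wounding in many plants.

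In control leaves most of these genes were weakly expressed. The mean over the 3 control libraries was below 1 FPKM for 10 of the 27 genes, between 1 and 10 FPKM for 9 genes and at least 10 FPKM for 8 genes. In salt leaves no mean was below 1 FPKM, 8 lay between 1 and 10 FPKM, 9 between 10 and 100 FPKM and 10 at 100 FPKM or above. The median of the 27 means was 2.12 FPKM in control and 32.8 FPKM in salt, while the median over all genes tested was 13.3 FPKM in control and 9.18 FPKM in salt. In control, 2 genes were at 0 in all 3 libraries and 8 more in 1 or 2 libraries. In salt, only ClCG05G006290 was at 0 in any library.

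**Figure D1:**
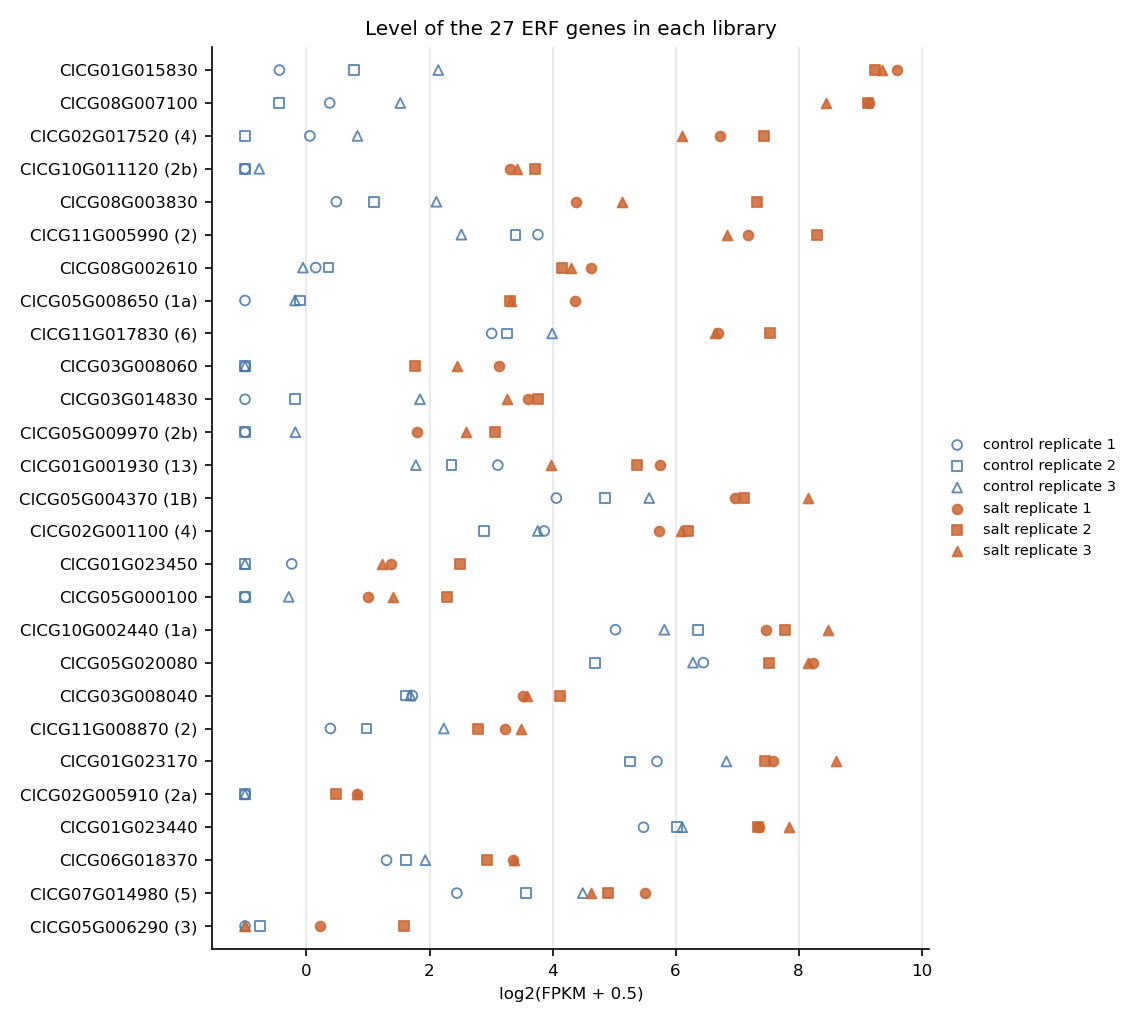
Level of each of the 27 ERF genes in each library, as log2(FPKM + 0.5) on the horizontal axis, with open blue symbols for the 3 control and filled orange symbols for the 3 salt libraries and 1 symbol shape per replicate. Genes are ordered by their difference, with the number or letter of the annotation in brackets, and the control and salt symbols are apart in 26 rows and overlap in the lowest row, ClCG05G006290.

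The 2 genes with the highest level in salt, ClCG01G015830 and ClCG08G007100, carry the plain description without a number. ClCG01G015830 had 0.237, 1.20 and 3.91 FPKM in control replicates 1, 2 and 3 and 775, 602 and 655 FPKM in salt replicates 1, 2 and 3. Its mean was 1.78 ± 1.91 FPKM in control and 677 ± 88.5 FPKM in salt (SD, n = 3), a ratio of 380 and a log2 difference of 8.57 ± 0.569 (SE). ClCG08G007100 had 0.799, 0.234 and 2.38 FPKM in control and 566, 561 and 348 FPKM in salt, a ratio of 432 between the means and a log2 difference of 8.42 ± 0.482. Both genes were weak in control, with 106 and 80 fragments over the 3 libraries, and stood among the strongest genes of the salt libraries, with 40102 and 34362 fragments. Control replicate 3 had the highest control value of both genes, and the spread of their control values was about as large as the control mean.

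Among the annotated numbers, 4 and 3 are shared with Arabidopsis ERF proteins known as repressors of transcription. Of the 2 genes described as ERF 4, ClCG02G017520 was nearly silent in control, with 0.538, 0 and 1.28 FPKM, and had 105, 173 and 68.7 FPKM in salt. Its means were 0.605 ± 0.641 and 115 ± 53 FPKM, a ratio of 191 and a log2 difference of 6.79 ± 0.526. The other, ClCG02G001100, was present in every control library with 14.1, 6.92 and 13.1 FPKM and had 52.4, 73.4 and 67.8 FPKM in salt, a log2 difference of 2.50 ± 0.316. As a ratio, the pair thus differed more in the control than in the salt libraries. ClCG02G017520 was the weaker of the pair in control and the stronger in salt, where the gap between the means in FPKM was larger. The gene described as ERF 3, ClCG05G006290, had 0, 0.0917 and 0 FPKM in control and 0.668, 2.49 and 0 FPKM in salt. It was the only member whose groups overlapped, and 49 of its 62 salt fragments came from salt replicate 2. With 2 control fragments, the ratio of the fragment counts per depth was 32.4 with a 95% exact interval of 8.59 to 273, which covers counting error only.

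ClCG05G004370 is described as a putative ERF 1B, the name of the Arabidopsis activator that EIN3 switches on directly. It had 16.2, 28.5 and 47.1 FPKM in control and 124, 138 and 283 FPKM in salt, with replicate 3 the highest in each group. Its mean was 30.6 ± 15.5 FPKM in control and 182 ± 88.2 FPKM in salt, a ratio of 5.94 and a log2 difference of 2.58 ± 0.449. Unlike ClCG01G015830 and ClCG08G007100, it was clearly expressed in every control library.

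The numbers 5, 6 and 13 belong to ERF proteins that have been studied in stress and defence responses of Arabidopsis. ClCG11G017830, described as ERF 6 and with 306 bp the shortest gene of the group, had 7.56, 9.07 and 15.4 FPKM in control and 103, 185 and 99.6 FPKM in salt, a ratio of 12.1 and a log2 difference of 3.53 ± 0.352. ClCG01G001930, described as ERF 13, had 8.14, 4.62 and 2.93 FPKM in control and 53.2, 41.0 and 15.3 FPKM in salt, a log2 difference of 2.62 ± 0.524. ClCG07G014980, described as ERF 5, had 4.94, 11.4 and 22 FPKM in control and 44.8, 29.5 and 24.3 FPKM in salt. The gap between the groups of ClCG07G014980 was narrow, from 22 FPKM in control replicate 3 to 24.3 FPKM in salt replicate 3, and its log2 difference of 1.51 ± 0.505 was among the smallest.

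Another 7 genes were described as ERF 1a, 2, 2a or 2b, with salt means from 1.15 to 251 FPKM. The 2 genes described as ERF 1a were ClCG10G002440, with 32, 82.1 and 55.9 FPKM in control and 178, 219 and 356 FPKM in salt, and ClCG05G008650, with 0, 0.432 and 0.379 FPKM in control and 20.1, 9.41 and 9.53 FPKM in salt. Their log2 differences were 2.17 ± 0.398 and 4.10 ± 0.457, so the weaker of the pair had the larger difference. Likewise, of the 2 genes described as ERF 2, ClCG11G005990 had 5.23 to 13.1 FPKM in control and 114 to 314 FPKM in salt, and ClCG11G008870 had 0.809 to 4.20 FPKM in control and 6.38 to 10.7 FPKM in salt. Here the stronger gene of the pair had the larger log2 difference, 4.21 ± 0.451 against 1.97 ± 0.512. The 2 genes described as ERF 2b, ClCG10G011120 and ClCG05G009970, were each at 0 in control replicates 1 and 2. In salt, ClCG10G011120 had 9.38, 12.7 and 10.2 FPKM and ClCG05G009970 had 2.97, 7.88 and 5.54 FPKM. With 2 control and 764 salt fragments, the ratio per depth of ClCG10G011120 was 399, with a 95% exact interval of 110 to 3299 for counting error. ClCG02G005910, described as ERF 2a, was at 0 in all control libraries and had 1.28, 0.891 and 1.27 FPKM in salt, which is at least 5.43-fold higher when each control library is set to 3 fragments.

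The remaining genes carry no number, and 6 of the 13 genes without one are described as putative. After ClCG01G015830 and ClCG08G007100, the largest difference among them was that of ClCG08G003830, at 4.38 ± 0.75, which rested unevenly on the salt libraries, with 20.4, 159 and 34.7 FPKM against 0.9, 1.63 and 3.82 FPKM in control. The difference of ClCG08G002610 was close to it, at 4.21 ± 0.327, but its libraries lay close together, with 0.461 to 0.78 FPKM in control and 17.4 to 24.1 FPKM in salt. ClCG03G014830 had 0, 0.381 and 3.09 FPKM in control and 9.09 to 13.1 FPKM in salt, so that control replicate 3 alone made most of its control mean. ClCG05G000100 was detected in control replicate 3 only, with 4 fragments, and had 1.5 to 4.38 FPKM in salt. ClCG06G018370, with 2355 bp the longest gene of the group, had 1.96 to 3.31 FPKM in control and 7.15 to 9.86 FPKM in salt, a log2 difference of 1.61 ± 0.336.

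The ERF genes with the highest control levels were those with moderate differences. ClCG01G023170 had 51.4, 37.9 and 113 FPKM in control and 192, 175 and 388 FPKM in salt, a ratio of 3.73 between means of 67.5 ± 40.1 and 252 ± 118 FPKM. ClCG05G020080 had 87.1, 25.3 and 77.4 FPKM in control and 300, 183 and 286 FPKM in salt, a ratio of 4.05. ClCG01G023440 had 44.1, 64.6 and 68.5 FPKM in control and 163, 162 and 229 FPKM in salt, a ratio of 3.13 and a log2 difference of 1.64 ± 0.266. In each of these genes every salt library was above every control library, although the ratios were far below those of ClCG01G015830 and ClCG08G007100.

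Members with neighbouring identifiers differed in level. ClCG01G023440 and ClCG01G023450 follow each other in the numbering, in which the step is 10. ClCG01G023450 had 0.347, 0 and 0 FPKM in control and 2.08, 5.13 and 1.85 FPKM in salt, against 59.1 and 185 FPKM as the control and salt means of ClCG01G023440. ClCG03G008040 and ClCG03G008060 are 20 apart in the numbering. ClCG03G008040 had 2.57 to 2.80 FPKM in control, the tightest control values of the group relative to the mean, and 10.9, 16.9 and 11.5 FPKM in salt. ClCG03G008060 was at 0 in all control libraries and had 8.28, 2.88 and 4.96 FPKM in salt, at least 17.1-fold higher with each control library set to 3 fragments. Thus within each pair 1 gene was present in control leaves and the other near or at 0. Sequence likeness within the pairs was not examined, and reads shared between similar family members were not resolved here.

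In the fit over all 16638 genes, the log2 difference was above 0 in all 27 ERF genes, above 4 in 8 genes, between 2 and 4 in 12 genes and below 2 in 7 genes, with a median of 2.58 and a range of 1.19 to 8.57. The median was also 2.58 with the 2 genes at 0 in control set to their bounds, and it was 3.15 after median-ratio scaling. At an adjusted p below 0.05 in limma, 26 of the 27 were higher in salt, where 13.6% of all genes tested were higher and 34.2% lower. In 26 of the 27 every salt library was above every control library, which held for 17.7% of all genes tested. Both counts restate how the genes were chosen and nothing is read from them. Just inside the choice were ClCG05G006290 with 1.19 ± 0.655 and ClCG07G014980 with 1.51 ± 0.505. Just outside it by wording was ClCG09G020880, described as an ethylene responsive factor, with 53.6, 62.6 and 50.4 FPKM in control, 260, 301 and 303 FPKM in salt and a difference of 2.37 ± 0.214.

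**Figure D2:**
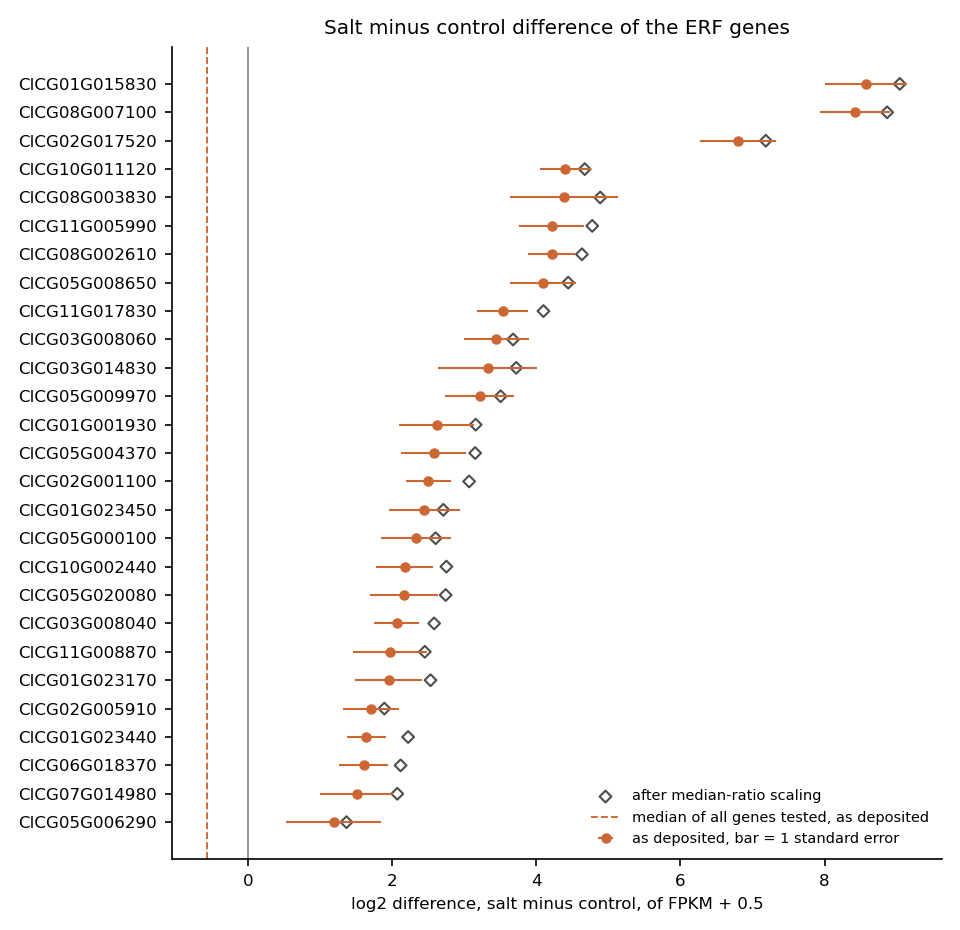
Salt minus control difference of each ERF gene on the log2(FPKM + 0.5) scale, as deposited with a bar of 1 standard error (filled orange) and after median-ratio scaling (open diamonds), with 0 as a solid line and the median of all genes tested, -0.57, as a dashed line. All 27 filled points lie to the right of 0, from 1.19 to 8.57, and the scaling moves them further to the right.

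Because the libraries were not scaled to each other, the place of each gene among the 16638 genes of its own library was also determined. The median place of a gene over the control libraries was below percentile 25 for 17 of the 27 genes, below 50 for 22 and above 90 for 0. In salt, the median place was above percentile 90 for 10 genes and below 50 for 7. ClCG01G015830 went from percentile 11.2 to 99.2 and ClCG08G007100 from 8.82 to 98.9 by these medians. Of the 5 genes strongest in control, whose places could rise only to 100, ClCG05G020080 went from 89.5 to 97.8, ClCG01G023440 from 86.4 to 96.1 and ClCG05G004370 from 70.9 to 95.3. For 26 genes the place in every salt library was above that in every control library, which held for 27.5% of all genes tested. These places come from the contrast that chose the genes and are a description only. The median places ranged from 1.2 to 89.5 in control and from 7.87 to 99.2 in salt.

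**Figure D3:**
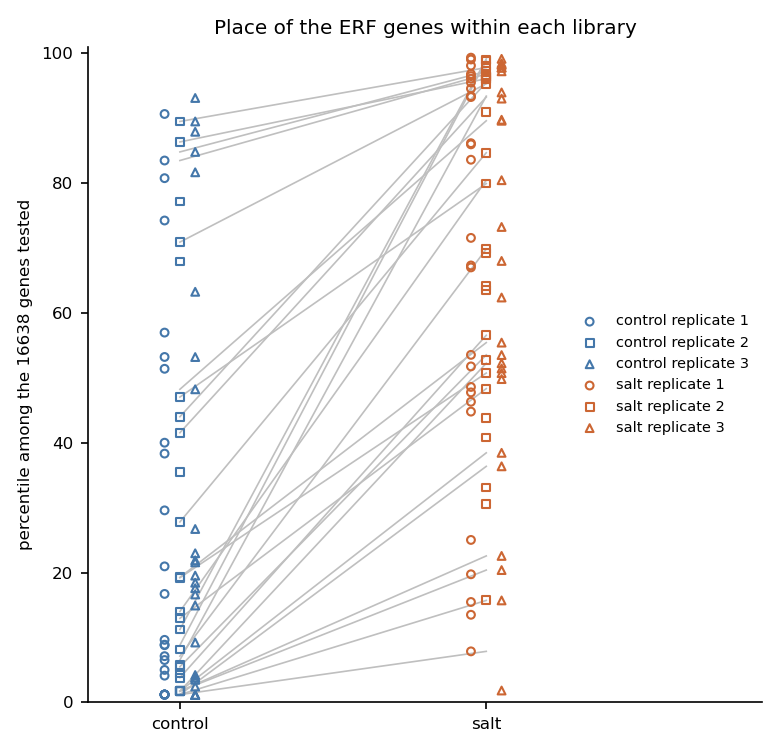
Percentile of each ERF gene among the 16638 genes tested, within each control (blue) and each salt library (orange), with 1 symbol shape per replicate and a grey line joining the median control and the median salt place of a gene. In control, 17 of the 27 medians lie below 25, and in salt 10 lie above 90.

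Summed over the 27 genes, ERF transcripts amounted to 288, 292 and 447 FPKM in control replicates 1, 2 and 3 and to 2932, 3121 and 3065 FPKM in salt replicates 1, 2 and 3. The means were 342 ± 90.9 and 3040 ± 97.4 FPKM (SD, n = 3), a ratio of 8.88, which was 13.5 after median-ratio scaling. As a share of all FPKM of a library, ERF genes took 0.0375% to 0.0599% in control and 0.421% to 0.428% in salt. As deposited, the salt sums lay closer together, relative to their mean, than the control sums. The median ratios to the common reference were 0.955, 0.693 and 0.881 in salt replicates 1, 2 and 3. These ratios differ more than the salt sums, and salt replicate 2 has the lowest ratio and the highest sum. After this scaling the salt sums are therefore no longer close together.

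The salt sums, similar as deposited, were made of unequal parts. ClCG01G015830 and ClCG08G007100 together gave 1.04, 1.44 and 6.29 FPKM in control and 1341, 1163 and 1003 FPKM in salt, that is 0.854% of the mean control sum and 38.5% of the mean salt sum. The 5 genes strongest in control, ClCG01G023170, ClCG05G020080, ClCG01G023440, ClCG10G002440 and ClCG05G004370, gave 231, 238 and 362 FPKM in control and 957, 877 and 1542 FPKM in salt. These 5 made up 81.0% of the control sum and 37.0% of the salt sum. The other 20 genes gave 52.0 to 78.7 FPKM in control and 634, 1081 and 521 FPKM in salt. As deposited, the parts differed between the salt libraries. The first pair was highest in salt replicate 1, the 5 genes in salt replicate 3 and the other 20 in salt replicate 2. With each library scaled by its median ratio, the first pair is highest in salt replicate 2 instead. The 5 genes stay highest in salt replicate 3 and the other 20 in salt replicate 2. Without ClCG01G015830 and ClCG08G007100 the ratio of the summed means was 5.51.

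**Figure D4:**
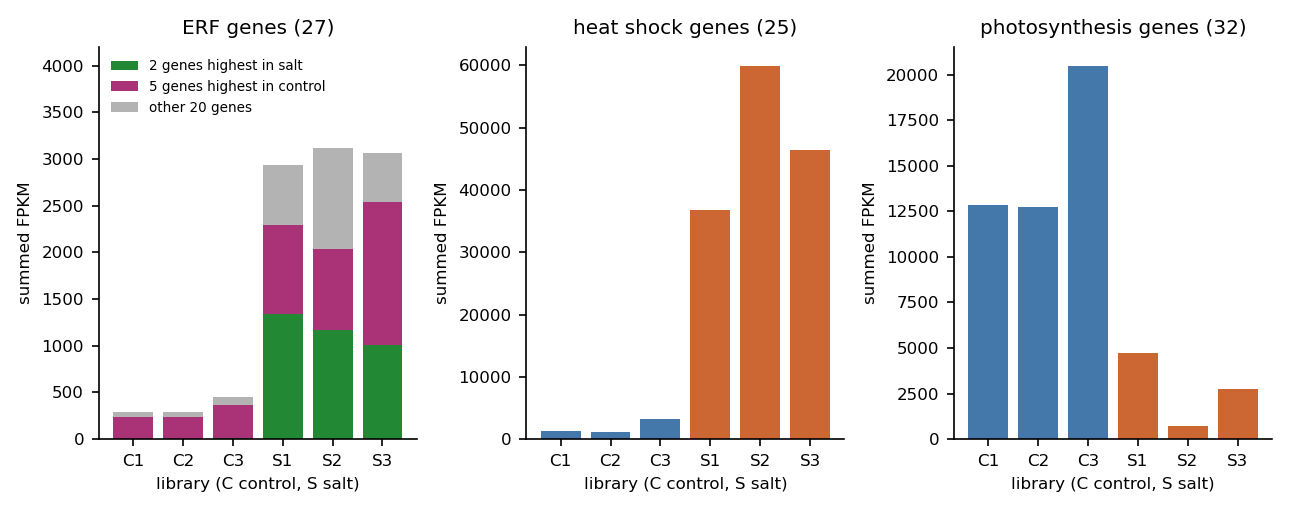
Summed FPKM in each library (C1 to C3 control, S1 to S3 salt) of the 27 ERF genes, stacked by the 2 genes highest in salt (green), the 5 highest in control (purple) and the other 20 (grey), and of 25 heat shock and 32 photosynthesis genes (blue control, orange salt). As deposited, without scaling between libraries, the ERF sums are 2932 to 3121 FPKM in salt although their parts differ. The heat shock sum is highest and the photosynthesis sum lowest in S2. Both of these lists were taken from genes that the study reported as changed in the same libraries.

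The order of the replicates within each group was also compared, as a description. Control replicate 3 was the highest control library in 15 of the 25 ERF genes with a control value, and in 43.0% of all genes tested. Salt replicate 2 was the highest salt library in 12 of the 27 ERF genes (44.4%), and in 19.9% of all genes tested. It was also the lowest in 10 of the 27 (37.0%), and in 52.7% of all genes tested. After median-ratio scaling it was the highest in 15 of 27 (55.6%) against 38.0%, and the lowest in 4 of 27 (14.8%) against 33.1%. As deposited, of the 5 genes strongest in control, 4 were highest in salt replicate 3. Of the other 22 genes, 2 were highest there and 12 in salt replicate 2. The heat shock genes of the study's list, which encode chaperones and are markers of protein stress, were mostly highest in the same libraries. Of 25 heat shock genes 20 were highest in control replicate 3 and 19 in salt replicate 2. Unlike the ERF genes, only 3 of the 25 were lowest in salt replicate 2 as deposited. After median-ratio scaling few genes of either group were lowest there, 0 of the 25 heat shock and 4 of the 27 ERF genes. Then 23 of the 25 heat shock genes were highest there. Their summed FPKM was 1222, 1164 and 3167 in control and 36764, 59953 and 46351 in salt. The part of this library difference in the ERF values was not tested. Without control replicate 3 the ratio of the ERF sums was 10.5 in place of 8.88.

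The median SD of an ERF gene over the 3 libraries was 0.53 in control and 0.50 in salt on the log2(FPKM + 0.5) scale, against 0.30 and 0.47 over all genes tested. The SD was larger in control than in salt in 14 of the 27 genes. WRKY and NAC genes, plant transcription factor families that also act in stress responses and that were taken from the same list of raised genes, had median SDs of 0.52 and 0.54 in control and 0.65 and 0.66 in salt. The median control level of the ERF genes, 2.12 FPKM, stood beside 9.52 FPKM for the 15 WRKY and 13.8 FPKM for the 14 NAC genes that passed the filter, and the median salt level of 32.8 FPKM beside 95.3 and 52.5 FPKM. These values are side by side as a description and were not tested, because each list was chosen on the same contrast.

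The ERF gene models were short. Their median length, recovered from the FPKM values, was 834 bp with a range of 306 to 2355 bp, while the median of all genes tested was 1453 bp, and 25 of the 27 were shorter than that. In 25 of the 27 the length was a multiple of 3, compared with 52.4% of all genes tested. A gene of few bases collects few fragments at a given FPKM. The low control values rested on small numbers, with 0 to 3 fragments over the 3 control libraries in 4 of the 27 genes. Length did not set these apart, since the 4 genes had 471 to 1219 bp and the 5 genes strongest in control 456 to 840 bp.

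Whether genes that make and sense ethylene differed in the same leaves was examined with 7 genes that the study listed as changed in these libraries, so that their direction is not independent evidence. Of these, 2 rose and 1 fell at an adjusted p below 0.05 in limma, against 13.6% and 34.2% of all genes tested. Both that rose are described as ACC synthase, the enzyme that usually limits ethylene synthesis. These 2 genes were taken from the same shortened list of raised genes as the ERF genes. An ACC synthase gene that fell or did not change could not enter. Their rise restates that choice, nothing is read from it, and no p-value is given for these 2 genes. ClCG06G003420 had 0.169, 0.825 and 1.30 FPKM in control and 11.9, 8.42 and 36.7 FPKM in salt, a log2 difference of 3.78 ± 0.615. ClCG07G007900 had 4.03, 5.60 and 4.03 FPKM in control and 6.46, 16.4 and 14.7 FPKM in salt, a log2 difference of 1.28 ± 0.405. The first of the pair was nearly absent from control leaves, whereas the second was present at a low level. Over all settings the log2 difference of ClCG07G007900 ranged from 1.04, without salt replicate 2, to 1.85, after quantile normalization.

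The gene that fell was ClCG08G013350, labelled EBF1/2, which encodes the F-box protein acting against EIN3. It had 117, 65.0 and 104 FPKM in control and 46.7, 23.1 and 24.1 FPKM in salt, a log2 difference of -1.62 ± 0.349 (limma, adjusted p = 0.00772), and every salt library was below every control library. The other 4 genes did not pass. The EIN3 gene ClCG00G002220 had 2.54 to 3.95 FPKM in control and 3.81 to 6.23 FPKM in salt (log2 difference 0.54 ± 0.351). The receptor genes ClCG11G011170 and ClCG05G004500, labelled ETR, had differences of 0.45 ± 0.312 and 0.86 ± 0.363, and the CTR1 gene ClCG04G009780 one of 0.57 ± 0.259, with limma adjusted p values of 0.0828 to 0.254 among these 4 genes. Their values depended on the scaling between libraries. After median-ratio scaling 6 of the 7 genes rose, where 22.4% of all genes tested were higher and 20.9% lower, and after quantile normalization 5 rose, where 21.6% were higher and 22.9% lower.

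**Figure D5:**
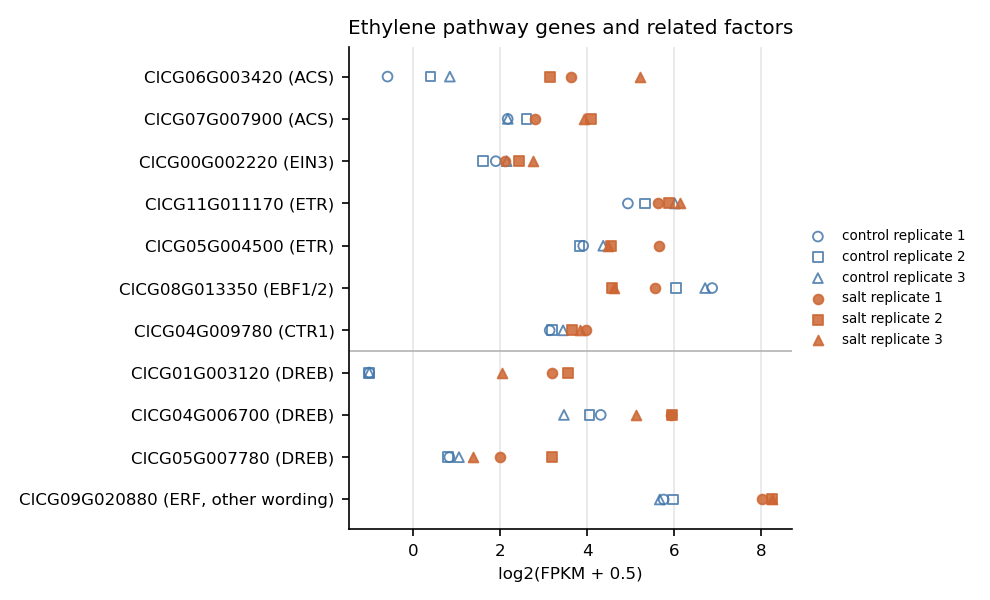
Level of 7 ethylene synthesis and signalling genes (above the grey line) and of 4 related factor genes (below it) in each library as log2(FPKM + 0.5), with open blue symbols for control and filled orange symbols for salt libraries. The ACC synthase gene ClCG06G003420 lies higher and the EBF1/2 gene ClCG08G013350 lower in all 3 salt libraries than in any control library.

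DREB proteins share the AP2/ERF domain with the ERF proteins and bind dehydration-responsive promoter elements. Of the 3 genes described as DREB factors in the same list of raised genes, ClCG01G003120, named as a 1B form, was at 0 in all control libraries and had 8.71, 11.3 and 3.60 FPKM in salt, at least 36.5-fold higher with each control library set to 3 fragments. ClCG04G006700 had 19.4, 16.2 and 10.6 FPKM in control and 59.97, 61.1 and 34.3 FPKM in salt. ClCG05G007780 had 1.26 to 1.59 FPKM in control and 3.48, 8.61 and 2.11 FPKM in salt. Salt replicate 2 had the highest value of all 3 genes.

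The genes that stand next to an ERF gene in the numbering were not used in the choice of the ERF genes and were examined for comparison. Of 47 such genes, 38 passed the filter, of which 9 rose (23.7%) and 9 fell (23.7%) in limma, with 13.6% and 34.2% over all genes tested, and their median log2 difference was 0.10. After median-ratio scaling 13 rose and 6 fell, with a median of 0.63, and after quantile normalization 13 rose and 9 fell. The number that rose was 4 without control replicate 1 and 5 without control replicate 2. Over all genes tested, the number that rose also went down, from 2266 to 1632 and 1624. ClCG01G015840, beside ClCG01G015830, had means of 4.24 ± 1.45 FPKM in control and 40.7 ± 21.4 FPKM in salt, a log2 difference of 2.99 ± 0.477 (limma, adjusted p = 0.0025). ClCG08G007110, beside ClCG08G007100, had a log2 difference of 0.01. The largest difference was that of ClCG11G008880, beside ClCG11G008870, with 0.153, 0 and 1.01 FPKM in control and 272, 565 and 228 FPKM in salt, a log2 difference of 8.70 ± 0.496 (limma, adjusted p = 0.000114), while the ERF gene ClCG11G008870 itself had a difference of 1.97. In the opposite direction, ClCG03G014840, beside ClCG03G014830, had means of 529 ± 108 FPKM in control and 23.8 ± 18.8 FPKM in salt, a log2 difference of -4.71 ± 0.509 (limma, adjusted p = 0.000641).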

How the data were processed

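The FPKM values were computed by the authors for each gene and library and are used as deposited, without scaling between libraries. The paper names Bowtie, TopHat, HTSeq and DESeq, and the submitters' processing notes name fastp, HISAT2 2.1.0, featureCounts and DESeq2. Which of these made the table, and whether strand was used, is not given in the sources used here. The treatment follows the protocol label, the title and the paper.

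The 16638 genes whose mean was 0.5 FPKM or more were fitted on log2(FPKM + 0.5) by limma 3.58.1 (R 4.3.3) with a variance trend, and p-values were Benjamini-Hochberg adjusted over all of them. P-values measure the spread between the 3 libraries per group. On simulated data with 16377 genes, 58 of 100 genes changed by a log2 of 1.5 and 85 of 100 changed by 3 were found. Whether these rates hold for weakly expressed genes was not tested, and the median ERF level in control was 2.12 FPKM. Whether they hold at the spread of the salt libraries was not tested either. Over all genes tested, the median SD was 0.30 in control and 0.47 in salt. Whole fragments, gene lengths and library totals were recovered from the FPKM steps, with whole values for 19556 of 19557 genes to within 0.002 fragments, and served for depth and for a voom fit. Floors are 3 fragments per library and intervals cover counting error only.

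The members and lists were chosen with earlier results of these data known. All 27 members could be named. Values in every library were due for the genes named in the selection, those highest in salt or control, those with the smallest difference or overlapping groups, those numbered 1B, 3, 4, 5, 6 or 13, and those with close identifiers. Other genes were named from the pathway, related and neighbour lists only. Percentiles rank a gene within its library.

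Replicate numbers come from the labels. Deviations of control and salt libraries of the same number from their group means correlated across genes at 0.175, 0.105 and 0.128. Those of different numbers correlated at -0.108 to -0.0391. Deviations from a group mean cancel within the group, so the opposite signs are partly built in. The labels shown do not state a pairing. The numbers were treated as pairing the samples only in the fit with a replicate block, and the main fit had none. Alternatives were pseudocounts of 0.1 and 1, no filter or a mean of at least 1 FPKM, median-ratio, common-sum and quantile scaling, no variance trend, the voom fit, the replicate block and each library left out. The authors' columns of fold changes and p-values in their lists were not used. Tables and figures were made with Python 3.11.15, pandas 2.3.3 and matplotlib 3.10.9.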

Additional observations from a re-analysis of the deposited data

How the results depend on the processing

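The ERF genes were chosen as higher in these libraries, so a stable direction is no support for it. The log2 difference of ClCG07G014980 ranged from 0.98, without control replicate 1, to 2.07, after median-ratio scaling. That of ClCG11G008870 ranged from 1.56, without control replicate 1, to 2.51, after quantile normalization. The ERF median difference was 3.62 with a pseudocount of 0.1, 2.46 with 1 and 4.28 in the voom fit. With each library left out in turn, 24 to 26 ERF genes were higher in salt, and the ratio of summed ERF FPKM was 8.23 to 10.5. This ratio was 13.5 after median-ratio scaling and 9.42 after scaling to a common sum. With the replicate block, 26 ERF genes were higher in salt, 2 pathway genes rose and 1 fell, and the block changed no call of an ERF or pathway gene. Scaling by median ratio gave 3719 higher and 3472 lower genes of all genes tested in place of 2266 and 5684, and quantile normalization gave 3602 higher. The share of higher genes among all called thus depended on the scaling. Of the pathway genes, 6 rose after median-ratio scaling, 5 after quantile normalization and 1 to 2 with a library left out, and of the genes beside ERF genes 4 to 8 rose with a library left out. With a library left out, 1624 to 2113 of all genes tested were higher and 3705 to 5616 lower, the lowest count without control replicate 2. The cause of these shifts was not tested. Small fragment numbers in control limit the ratios of the weakest ERF genes.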
